A study of Mus musculus with 28 samples.

Results

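The transfer RNAs (tRNAs) that carry leucine (Leu), serine (Ser) or selenocysteine (SeC) were taken from a small non-coding RNA (ncRNA) count table of plasma extracellular vesicles (EVs), the membrane-bound particles that cells release into blood. Rows were taken by name, as every row of the table that names a Leu, Ser or SeC tRNA gene, which gave 54 of the 464 tRNA rows and of the 18710 rows in all. This set of tRNAs was itself chosen with earlier results of these data known. The study asked how neuromuscular electrical stimulation (NMES) of the hind legs changed RNA in muscle, brain and plasma EVs, and whether partial loss of klotho, an anti-aging protein, altered that response. The 28 libraries, 1 per mouse, came from 8 KlHET NMES, 8 KlHET control, 6 WT NMES and 6 WT control mice.

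KlHET mice carried 1 disrupted copy of the klotho gene Kl (B6;129S5-Kl tm1Lex/Mmucd) in every cell, and WT mice were wild type; both were 2 months of age. NMES mice had 5 sessions of stimulation on alternate days at 9 mA, each with 2 sets of 10 stimulations on either leg under 2.5% isoflurane. Control mice breathed 2.5% isoflurane for 15 min on the same days, so that anesthesia was common to all 4 groups and was not itself compared. Blood was drawn 24 h after the last session. EVs were purified from 400 uL of plasma with a commercial kit and not from a named cell type, so a count reports how much of a tRNA was recovered, whichever cell released it. These counts alone do not separate more vesicles from more RNA per vesicle.

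Most tRNAs fold with a variable loop of a few bases between the anticodon arm and the T arm, but tRNA-Leu, tRNA-Ser and tRNA-SeC carry a long variable arm there that folds into a stem. The seryl-tRNA synthetase recognises the long arm and not the anticodon, and it charges both tRNA-Ser and tRNA-SeC with serine. The serine on tRNA-SeC is then converted to selenocysteine, which ribosomes insert at UGA codons of selenoproteins. In EVs and plasma, tRNAs are found largely as fragments, which a small RNA library captures as short reads.

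Most Leu and Ser tRNA genes were longer than those of most other amino acids in the reference annotation. RefSeq (GRCm38.p6) listed 47 nuclear Leu and Ser tRNA loci, of which 42 were 82 or 83 bases long, whereas 337 of the 355 loci of the other amino acids were at most 74 bases long. The exceptions were the 4 Leu-CAA loci at 105 to 107 bases, a family that carries an intron, and the 1 Ser-GGA locus at 73 bases. Length alone was not particular to Leu and Ser, since the 10 Tyr loci were 86 to 93 bases long and Arg and Ile loci reached 87 and 96 bases. On chromosome 13 lay 19 of the 47 Leu and Ser loci (40.4%), against 86 of the 355 others (24.2%). A further 6 were on chromosome 1, 5 of them Leu-CAG loci between 171038614 and 171101920. RefSeq names loci by anticodon and its own numbers, so single rows of the count table were not tied to single loci.

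For 4 Ser loci the sequence could be read, at the RefSeq coordinates, from GENCODE vM21 transcripts of the same build. They are shown because the likeness of the AGA and TGA genes bears on the Ser-AGA and Ser-TGA values below, with the GCT gene for contrast; the capitals mark the anticodon and, after it, the 14-base variable arm.
n-TSaga9 (chr4:10874064-10874145, plus strand): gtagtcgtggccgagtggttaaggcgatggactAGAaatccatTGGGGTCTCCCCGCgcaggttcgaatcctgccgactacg
n-TStga1 (chr13:23518146-23518227, plus strand): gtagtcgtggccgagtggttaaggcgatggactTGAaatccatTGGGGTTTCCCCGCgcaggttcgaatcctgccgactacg
n-TStga2 (chr13:21924935-21925016, minus strand): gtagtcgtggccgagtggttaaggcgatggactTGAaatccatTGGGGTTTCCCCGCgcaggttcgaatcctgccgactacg
n-TSgct5 (chr13:22050686-22050767, minus strand): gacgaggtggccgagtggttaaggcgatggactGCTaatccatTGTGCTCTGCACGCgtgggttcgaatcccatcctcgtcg

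Counted from 1 at the 5′ end, n-TSaga9 differed from n-TStga1 at 2 of 82 positions, A34T in the anticodon and C50T in the variable arm. The first 33 and the last 32 bases of this pair were identical, so a read lying wholly within either stretch has the same match to both. The n-TStga1 and n-TStga2 genes were identical over all 82 bases. The n-TSgct5 gene differed from n-TSaga9 at 20 positions and, counted from either end, shared an unbroken run of only its first base and last 2 bases. Inside the genes longer runs were shared, such as the printed one that ends just before the anticodon. A short read lying wholly within that run has the same match to both.

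The counts carried the same likeness. Ser-AGA-1-1 and Ser-TGA-2-1, which read different serine codons, held 1798 and 1799 counts over the 28 libraries and were equal in 25 of them, and nowhere did they differ by more than 1 count. Counts this close are what a read counted at both rows gives, though how reads with several matches were counted is not given in the sources used here. Among the 54 rows there were 45 distinct sets of counts, and 15 rows were equal to another row in every library. When rows were grouped that differed by at most 5% of their summed counts, the 54 rows fell into 28 profiles. The largest profile joined 9 rows of 2 anticodons, namely Ser-AGA-1-1, Ser-AGA-2-1 to Ser-AGA-2-6, Ser-TGA-2-1 and Ser-TGA-2-2. Leu-CAG-1-1 to Leu-CAG-1-5 and Leu-CAG-3-1 made another profile of 6 rows. A profile of 4 rows joined Leu-AAG-1-1, Leu-AAG-1-2 and Leu-AAG-1-3 with Leu-TAG-1-1, again across anticodons. The likeness across anticodons was looser here, since Leu-AAG-1-1 and Leu-TAG-1-1 were equal in only 1 of 28 libraries and differed by up to 30 counts. Ser-AGA and Ser-TGA were therefore not independent measurements, and a sum over an anticodon can hold a read more than once.

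The likeness was not general. Ser-AGA-2-1 and Ser-GCT-4-1 were equal in 0 of 28 libraries and differed by 14.4% of their summed counts. Ser-TGA-1-1, with 149 counts in all, was unlike Ser-TGA-2-1 and differed from it by 84.7%. The 3 rows Leu-TAA-5-1, Leu-TAA-5-2 and Leu-TAA-5-3 were equal to each other, with 241 counts each, and were equal in 27 of 28 libraries to a proline row, Pro-AGG-2-1, with 244 counts. The exception was KlHET NMES replicate 6, with 3 counts for Leu-TAA-5-1 and 6 for Pro-AGG-2-1. These 3 Leu-TAA rows differed from Leu-TAA-1-1 by 47.5% of their summed counts.

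**Figure D1:**
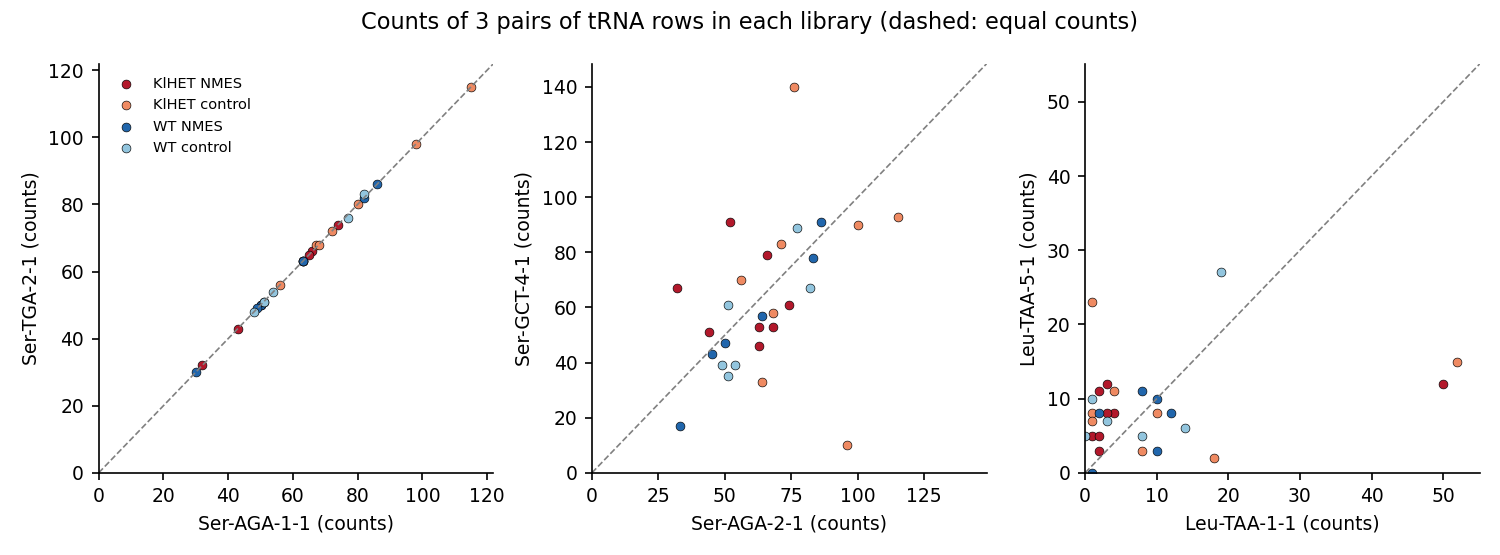
Counts of 3 pairs of tRNA rows in each of the 28 libraries (1 point per library, coloured by group), with a dashed line where both rows are equal. Ser-AGA-1-1 and Ser-TGA-2-1 lie on the line, Ser-AGA-2-1 and Ser-GCT-4-1 scatter about it with KlHET control replicate 2 at 96 and 10 counts, and Leu-TAA-1-1 exceeds Leu-TAA-5-1 by far in KlHET NMES replicate 4 (50 and 12) and KlHET control replicate 5 (52 and 15).

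Library totals ranged from 531261 to 3389206 counts and tRNA totals from 71224 to 2146595. Among them, 2 libraries stood apart in their tRNAs. WT control replicate 5 had the highest tRNA total, 63.3% of its counts, most of it Gly and Glu tRNA. The tRNA of KlHET control replicate 2 had little Gly and Glu and much Ala, Cys and Gln tRNA. It also held the lowest summed level of each of the 5 marker miRNA lists in its group, for instance 1301 CPM (counts scaled to a common total, here of miRNA counts) for the 5 erythroid miRNAs, against a median of 54653 over the KlHET controls. All 17 marker miRNAs of erythroid cells, platelets and leukocytes, liver, skeletal muscle and endothelium had counts. Summed erythroid markers had a median of 56223 CPM (range 29067 to 167161) in KlHET NMES, 54653 (1301 to 138203) in KlHET control, 97604 (77239 to 142677) in WT NMES and 87923 (36323 to 128237) in WT control libraries. Summed liver markers had a median of 33637 CPM (9867 to 51930) in KlHET NMES, 33795 (1664 to 53047) in KlHET control, 62080 (29257 to 130841) in WT NMES and 47080 (14881 to 224179) in WT control libraries. The skeletal muscle list had a median of 6850 CPM (2448 to 14400) in KlHET NMES, 3763 (106 to 43948) in KlHET control, 9208 (5205 to 14251) in WT NMES and 6714 (1845 to 36519) in WT control libraries. For endothelium the median was 4843 CPM (2788 to 8620) in KlHET NMES, 3605 (90.8 to 4448) in KlHET control, 7530 (5456 to 10181) in WT NMES and 5766 (3237 to 10150) in WT control libraries. For platelets and leukocytes it was 10960 CPM (8367 to 22826) in KlHET NMES, 11538 (348 to 23854) in KlHET control, 14344 (9696 to 20081) in WT NMES and 12673 (8919 to 20370) in WT control libraries. Medians of all 5 lists were lower in KlHET than in WT libraries of the same treatment, and the erythroid, muscle and endothelium medians were higher in NMES than in control libraries of both genotypes. The ranges overlapped in each case, and the part of these markers in the tRNA results was not tested.

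The 54 rows together made a small share of EV tRNA, between 0.153% (WT control replicate 5) and 3.24% (KlHET NMES replicate 7) of a library's tRNA counts, with a mean of 1.51% ± 0.854 (SD, n = 28). Leu averaged 0.850% ± 0.536 and Ser 0.661% ± 0.336. Gly tRNA averaged 39.8% and Glu tRNA 28.1%, and a share of any other tRNA is relative to a total made mostly of these 2. Leu shares had a lowest, median and highest value of 0.534%, 1.39% and 2.00% in KlHET NMES, 0.223%, 0.731% and 1.37% in KlHET control, 0.293%, 0.668% and 0.944% in WT NMES, and 0.0863%, 0.573% and 1.04% in WT control libraries. The Ser shares were 0.496%, 0.985% and 1.42% in KlHET NMES, 0.288%, 0.635% and 1.02% in KlHET control, 0.202%, 0.545% and 0.960% in WT NMES, and 0.0639%, 0.427% and 0.959% in WT control libraries. All 4 groups overlapped for both amino acids.

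Against the total of all RNA classes the same tRNAs varied less than against the tRNA total, where the coefficient of variation (CV, the SD as a percent of the mean) was 50.9% for Ser and 63.1% for Leu, the 3rd and 9th lowest of 21 amino acid groups, behind Glu at 40.1% and Gly at 41.6%. Across the 28 libraries the share of all counts had a CV of 30.2% for Ser, the lowest of the 21 amino acid groups with at least 500 counts, and of 38.2% for Leu, the sixth lowest. By the same share of all counts, Gly had a CV of 95.6% and Glu of 77.7%. Without KlHET control replicate 2 and WT control replicate 5, Ser remained lowest at 26.4% and Leu was 5 from the lowest at 31.8%. Arg, Tyr and Lys tRNA were close by, at 32.2%, 33.3% and 36.7% over the 28 libraries, so a low CV was not particular to tRNAs with a long arm. Summed counts of the 54 rows ranged from 997 to 4623 per library, a 4.64-fold range, against a 30.1-fold range for the tRNA totals.

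**Figure D2:**
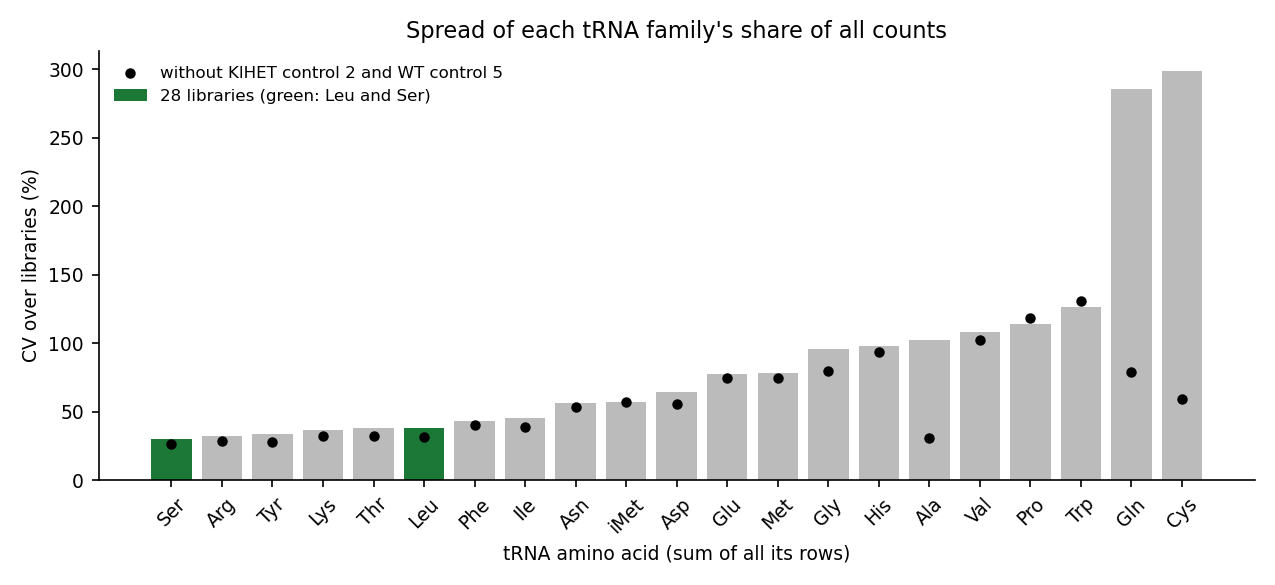
CV over libraries (%) of the share of all counts for the 21 tRNA amino acid groups with at least 500 counts, sorted from low to high; bars use 28 libraries and points leave out KlHET control replicate 2 and WT control replicate 5. Ser (30.2%) is the lowest bar and Leu (38.2%) the sixth, both in green, whereas Gly stands at 95.6% and Cys, the highest, at 298%.

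The count of rows seen was alike in all groups. Rows with at least 1 count numbered 50.3 ± 0.886 in KlHET NMES (SD, n = 8), 50.6 ± 1.19 in KlHET control (n = 8), 51.2 ± 1.83 in WT NMES (n = 6) and 49.8 ± 1.47 in WT control libraries (n = 6). The group means differed by less than 1.5 rows, which is within the spread of single libraries. Of the 54 rows, 39 had at least 500 counts in all and 4 had fewer than 50, these being Leu-CAG-4-1 (28), Leu-TAG-4-1 (16), Ser-AGA-3-1 (34) and Ser-AGA-4-1 (3). The filter on low counts kept 45 rows, 9 anticodons and both Leu and Ser, and left out Ser-GGA and SeC-TCA, for which no fold change is given.

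Levels below are sums over the gene copies of an anticodon, as CPM of the tRNA counts after TMM scaling. TMM (trimmed mean of M-values) sets libraries to a common level on rows that change little, and its factors ran from 0.208 in WT control replicate 5 to 2.37 in KlHET NMES replicate 6.

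Leu-CAG, the reader of the CUG codon, had the most counts of any anticodon here when its rows were summed. It had 15068 in all (21.2% of the member counts) over 10 rows, of which Leu-CAG-1-1 had 1765. Of these rows 6 made 1 profile and 3 another, so the sum can hold the same reads several times. The order of anticodons by summed counts is therefore not an order of abundance. For Leu-CAG the lowest, median and highest CPM were 1963, 3190 and 4150 in KlHET NMES, 1209, 3046 and 3877 in KlHET control, 1924, 2425 and 2945 in WT NMES, and 615, 2312 and 2666 in WT control libraries. The groups overlapped, with higher medians in KlHET than in WT libraries. Leu-AAG, which reads CUU and, once its first base is modified to inosine, CUC, had 10722 counts over 5 rows. Its CPM were 1292, 2284 and 2555 in KlHET NMES, 931, 2038 and 2814 in KlHET control, 1250, 1658 and 2658 in WT NMES, and 940, 1553 and 1824 in WT control libraries. The order of medians was that of Leu-CAG. Leu-TAG, for CUA, had 5866 counts over 4 rows and medians of 1183, 1108, 932 and 839 CPM in KlHET NMES, KlHET control, WT NMES and WT control libraries.

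Leu-CAA, the intron-bearing reader of UUG, had 6212 counts over 4 rows. Its lowest, median and highest CPM were 675, 1312 and 1463 in KlHET NMES, 588, 1479 and 2871 in KlHET control, 820, 981 and 1392 in WT NMES, and 342, 931 and 1040 in WT control libraries. The highest value was that of KlHET control replicate 2. Within a library the ratio of Leu-CAA to Leu-CAG, which needs no scaling, was steady, with a median of 0.402 and all libraries but 1 between 0.333 and 0.556. The exception was KlHET control replicate 2, at 1.504.

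Leu-TAA, for UUA, was the least counted Leu anticodon, with 1538 counts over 6 rows. Its copies fell into 2 kinds. Leu-TAA-1-1 had 50 counts in KlHET NMES replicate 4 and 52 in KlHET control replicate 5, whereas the other 26 libraries held 0 to 19 with a median of 3. Leu-TAA-2-1 had 51 and 57 counts and Leu-TAA-3-1 had 50 and 54 counts in the same pair of libraries, against at most 23 and 19 elsewhere. Leu-TAA-5-1 had only 12 and 15 counts there, and its highest count was 27, in WT control replicate 5. Of the 2 libraries with the high counts, 1 was an NMES and 1 a control library.

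Ser-AGA, which reads UCU and with inosine UCC, had 12852 counts over 9 rows, the largest sum of the Ser anticodons, led by Ser-AGA-2-2 at 1850. Ser-AGA-1-1 and Ser-AGA-2-1 to Ser-AGA-2-6 made 1 profile, so this sum can hold the same reads several times and does not rank abundance. For Ser-AGA the lowest, median and highest CPM were 1344, 2161 and 2948 in KlHET NMES, 1812, 2370 and 9977 in KlHET control, 1539, 2219 and 2532 in WT NMES, and 1213, 2034 and 2519 in WT control libraries. The library at 9977 CPM was KlHET control replicate 2, and the next KlHET control at 4658 CPM. The TMM factor of KlHET control replicate 2 was 0.341, which raises its CPM. By raw count Ser-AGA-2-2 had 96 there and up to 119 in the other KlHET controls. Ser-TGA, for UCA, had 3745 counts over 3 rows, nearly all in the 2 rows that share their counts with Ser-AGA. Its CPM were 381, 641 and 856 in KlHET NMES, 531, 686 and 2715 in KlHET control, 478, 643 and 748 in WT NMES, and 341, 593 and 724 in WT control libraries, with the same library highest.

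Ser-GCT, which reads the AGU and AGC codons, had 11902 counts over 8 rows. Its median CPM was 2141 in KlHET NMES, 2487 in KlHET control, 2159 in WT NMES and 1701 in WT control libraries. KlHET control replicate 2, at 2638 CPM, lay within the range of its group here. The copies were not alike. Ser-GCT-6-1, with 2460 counts, was the most counted row of all 54, whereas Ser-GCT-2-1 had 362 and Ser-GCT-5-1 had 269. Ser-CGA, for UCG, had 2702 counts over 3 rows, with CPM of 465.6, 498 and 558 in KlHET NMES, 350, 581 and 1645 in KlHET control, 198, 448 and 655 in WT NMES, and 217, 330 and 531 in WT control libraries. The 8 KlHET NMES libraries lay within a narrow band, 502 ± 30.8 CPM (SD). Ser-GGA had 195 counts in its 1 row, of which 51 were in KlHET control replicate 2 and at most 16 in any other library.

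**Figure D3:**
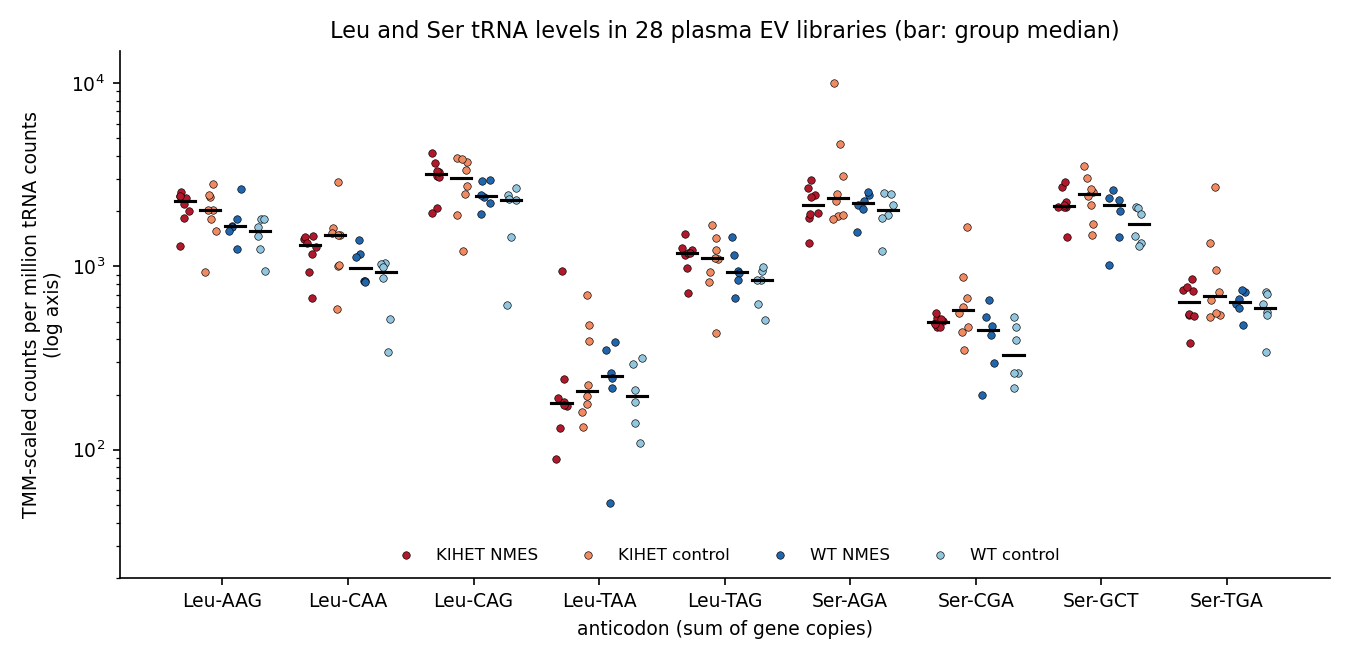
TMM-scaled CPM (log axis) of the 9 tested Leu and Ser anticodons in KlHET NMES, KlHET control, WT NMES and WT control libraries (points), with a bar at each group median. The groups overlap for each anticodon; for Ser-AGA, KlHET control replicate 2 stands at 9977 CPM, above all other libraries.

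SeC-TCA was counted at the edge of detection. Its single row had 114 counts, 59 of them in WT control replicate 5 and at most 7 in any other library. The 8 KlHET NMES libraries had 0 to 3 counts with a median of 0.5, the 8 KlHET controls 0 to 6 with a median of 1, the 6 WT NMES libraries 0 to 7 with a median of 4, and the 6 WT controls 1 to 59 with a median of 3. It was at 0 in 8 libraries, 7 of which were KlHET, and 0 counts there allow a share of up to 0.00118% to 0.00421% of tRNA counts (3 counts; counting error only). WT control replicate 5, the deepest library, held a share of 0.00275%. The highest share seen, 0.00555% in WT NMES replicate 2, lay above that range of limits, though it rested on 7 counts. The filter on low counts left SeC-TCA out of the fits, so these counts were not tested between groups.

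The first comparison asked whether KlHET control mice differed from WT control mice without stimulation. Library labels began with A in every WT mouse and with J in every KlHET mouse, and what the letters stand for is not given. In each comparison of KlHET with WT, genotype therefore cannot be told apart from anything else that differed between these label series. All 9 anticodons and all 45 rows tested had a higher fitted level in KlHET, but so had 74.5% of the 47 anticodons and 68.3% of the 341 tRNA rows tested, and the median log2 difference was 0.56 over the member rows and 0.34 over all rows. In edgeR's quasi-likelihood test with Benjamini-Hochberg adjustment over all tRNAs, Leu-CAA and Ser-CGA rose. Leu-CAA had a log2 difference of 0.85 ± 0.29 (SE, n = 8 and 6), adjusted p = 0.030, and Ser-CGA one of 0.97 ± 0.30, adjusted p = 0.020. These were 2 of 9 member anticodons, beside 17% of the 47 anticodons called higher and 6.38% called lower. Ser-AGA (0.79 ± 0.32, adjusted p = 0.067), Ser-TGA (0.77 ± 0.31, adjusted p = 0.067) and Ser-GCT (0.52 ± 0.22, adjusted p = 0.077) missed the threshold in the same test, and the other 4 had log2 differences of 0.43 to 0.55. DESeq2 called 1 of the 9, Ser-CGA.

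As whole families, Leu (0.56 ± 0.22, adjusted p = 0.041) and Ser (0.73 ± 0.26, adjusted p = 0.034) both rose in the edgeR test, where 33.3% of the 21 amino acid sums were called higher and 4.76% lower. Leu averaged 7751 ± 1904 CPM in KlHET control and 5257 ± 1546 CPM in WT control libraries (SD), and Ser 7783 ± 4429 CPM in KlHET control and 4687 ± 1040 CPM in WT control libraries. At the level of single rows, 5 of 45 were called higher and 0 lower, against 12.9% and 7.33% of all rows. They were Ser-CGA-1-1 (1.39 ± 0.45), Ser-CGA-3-1 (0.86 ± 0.30), Leu-CAA-2-1 (0.85 ± 0.27), Leu-CAA-4-1 (0.85 ± 0.31) and Leu-CAA-3-1 (0.83 ± 0.29), and Leu-CAA-3-1 and Leu-CAA-4-1 share a profile. DESeq2 called 0 of the 45. For Ser-CGA-3-1 the lowest, median and highest CPM were 121, 195 and 304 in KlHET control and 51.6, 109 and 182 in WT control libraries. In KlHET control replicate 2 it had only 8 counts.

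Each of these calls was lost when any of several single libraries was left out. Of the 28 libraries, leaving out any of 7 ended the call of Ser-CGA, any of 12 that of Leu-CAA, any of 14 that of Ser, any of 20 that of Leu, and any of 11 to 24 those of the rows. None of the 5 rows, 2 anticodons or 2 families was called without KlHET control replicate 2 or without WT control replicate 5. Without KlHET control replicate 2, the log2 difference was 0.64 for Leu-CAA (adjusted p = 0.12) and 0.67 for Ser-CGA (adjusted p = 0.10) in the same edgeR test. Without WT control replicate 5 it was 0.48 (adjusted p = 0.28) and 0.54 (adjusted p = 0.14), and without both it was 0.42 (adjusted p = 0.38) and 0.41 (adjusted p = 0.30). For the families the log2 difference was 0.59 for Leu (adjusted p = 0.064) and 0.44 for Ser (adjusted p = 0.12) without KlHET control replicate 2, 0.30 (adjusted p = 0.40) and 0.31 (adjusted p = 0.22) without WT control replicate 5, and 0.40 (adjusted p = 0.26) and 0.20 (adjusted p = 0.39) without both, all by edgeR. Among the others, the value moved by over 1.5 times for Ser, to log2 differences of 0.36 to 0.46, without WT control replicate 4, any of KlHET control replicates 6, 7 and 8 or KlHET NMES replicate 1, and for Leu without KlHET control replicate 7 (0.35), KlHET control replicate 8 (0.37) or KlHET NMES replicate 1 (0.36).

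The rows moved likewise. Ser-CGA-1-1 had a log2 difference of 0.75 without KlHET control replicate 2 (adjusted p = 0.18 by edgeR), 0.82 without WT control replicate 5 (adjusted p = 0.16) and 0.91 without KlHET control replicate 7 (adjusted p = 0.084). Ser-CGA-3-1 had 0.93 (adjusted p = 0.078) without KlHET control replicate 2 and 0.56 (adjusted p = 0.25) without WT control replicate 5. Leaving out the same pair singly gave 0.66 (adjusted p = 0.15) and 0.47 (adjusted p = 0.23) for Leu-CAA-2-1, 0.65 (adjusted p = 0.18) and 0.49 (adjusted p = 0.29) for Leu-CAA-4-1, and 0.62 (adjusted p = 0.18) and 0.47 (adjusted p = 0.27) for Leu-CAA-3-1. Ser-CGA as a whole was at 0.61 (adjusted p = 0.059) without KlHET control replicate 7.

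Under TMMwsp, a variant of TMM made for tables with many zeros, the median of all 47 anticodons was 0.002 in place of 0.55, the values of Leu-AAG (-0.08) and Leu-TAG (-0.01) turned negative, and the other 7 stayed positive with none called. The share of all counts, which uses no tRNA scaling, was also higher in KlHET, with a Leu mean of 0.154% ± 0.0686 in KlHET control and 0.107% ± 0.0488 in WT control libraries, and a Ser mean of 0.126% ± 0.0246 in KlHET control and 0.0964% ± 0.0417 in WT control libraries (SD, n = 8 and 6).

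The same contrast among stimulated mice asked whether the genotypes differed under NMES. All 9 anticodons again had a positive log2 difference between KlHET NMES and WT NMES mice, from 0.002 for Ser-TGA to 0.31 for Leu-CAG. So had 68.1% of all 47 anticodons, and the median was 0.21 for the 9 and 0.18 for all 47. In the edgeR test 0 of 9 passed, as did 0% of all 47 anticodons and 0% of all rows. With an unadjusted p under 0.05 there were 0 of these 9 and 6 of 47 anticodons, and DESeq2 called 0 of the 9. The row with the smallest p, Ser-CGA-3-1, had 0.62 ± 0.30 (adjusted p = 0.39), and Ser-GCT-2-1 had the smallest p among the lower ones (-0.89 ± 0.68, adjusted p = 0.69). The share of all counts was 0.180% ± 0.0391 for Leu in KlHET NMES and 0.121% ± 0.0250 in WT NMES libraries (SD, n = 8 and 6), and for Ser it was 0.132% ± 0.0361 in KlHET NMES and 0.0978% ± 0.0271 in WT NMES libraries.

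**Figure D4:**
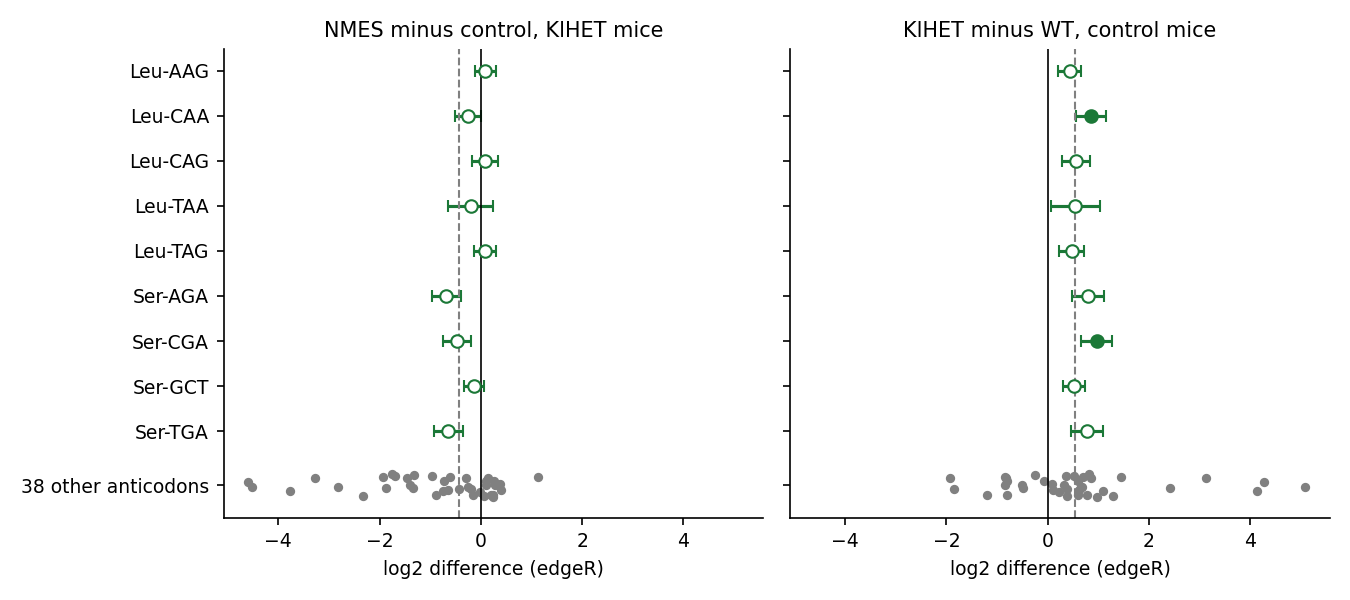
Log2 differences by edgeR (points, with SE bars; filled where adjusted p is under 0.05) of the 9 Leu and Ser anticodons, for NMES minus control in KlHET mice (left) and KlHET minus WT in control mice (right); grey points are the 38 other anticodons and the dashed line is the median of all 47. On the left the Leu anticodons lie near 0 and Ser-AGA, Ser-TGA and Ser-CGA below it; on the right all 9 are above 0, with Leu-CAA (0.85) and Ser-CGA (0.97) filled.

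The main treatment comparison asked what NMES did in KlHET mice. None of the Leu and Ser anticodons (0 of 9) passed the edgeR test, where 19.1% of the 47 anticodons were called lower and 0% higher. Ser-AGA had a log2 difference of -0.68 ± 0.29 (adjusted p = 0.094), Ser-TGA of -0.64 ± 0.28 (adjusted p = 0.10) and Ser-CGA of -0.47 ± 0.27 (adjusted p = 0.23). At an unadjusted p under 0.05 there were 2 of the 9 and 16 of the 47, and DESeq2 called 0 of the 9. The 2 were Ser-AGA and Ser-TGA, which were not independent measurements. Ser-GCT stood at -0.14 ± 0.21 and the Leu anticodons between -0.25 (Leu-CAA) and 0.09 (Leu-CAG and Leu-AAG). The median was -0.20 for the 9 and -0.44 for all 47. The family sums were 0.02 ± 0.20 for Leu (adjusted p = 0.93) and -0.48 ± 0.23 for Ser (adjusted p = 0.12), where 28.6% of amino acid sums were called lower.

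The sign of these differences depended on the scaling. In the main fit 3 of the 9 were positive and 6 negative. With tRNA totals alone as library size, all 9 were positive, from 0.51 (Ser-AGA) to 0.90 (Leu-TAG), none called, while the median of all 47 anticodons moved to 0.63. With TMM over all RNA classes all 9 were negative, and Ser-AGA and Ser-TGA, with their nearly equal rows, were called (adjusted p = 0.044 for both by edgeR). Without KlHET control replicate 2, Ser-AGA and Ser-TGA both stood at -0.25 (adjusted p = 0.65 for both by edgeR), Ser-CGA at -0.17 and the Ser sum at -0.19. Without KlHET control replicate 7, Ser-CGA and the Ser sum were both at -0.16, Ser-AGA at -0.30 and Ser-TGA at -0.28. These were not the only such libraries. Leaving out any of 8 moved the Ser sum by over 1.5 times, to between -0.16 and -0.31. Among them were WT control replicate 4 (-0.22) and WT control replicate 5 (-0.21), which share the fit but not this contrast. The same held for any of 7 libraries for Ser-AGA, 8 for Ser-TGA and 9 for Ser-CGA. The share of all counts for Ser was 0.132% ± 0.0361 in KlHET NMES and 0.126% ± 0.0246 in KlHET control libraries (SD, n = 8 each).

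Among rows, 1 of 45 was called in KlHET mice, and 15.8% of all 341 rows were called lower. This row was Ser-GCT-5-1, with a lowest, median and highest count of 1, 4 and 13 in KlHET NMES and 2, 9.5 and 56 in KlHET control libraries. Its log2 difference was -2.12 ± 0.72 (SE; adjusted p = 0.045). The 56 counts were those of KlHET control replicate 2, and without that library the difference was -0.47 (adjusted p = 0.67). The call was lost when any of 24 of the 28 libraries was left out. The next row, Ser-GCT-2-1, also had 56 counts in that library and at most 24 in the other KlHET controls, and had -1.85 ± 0.65 (adjusted p = 0.050). In the upward direction the smallest p belonged to Leu-AAG-1-2, at 0.15 ± 0.20 (adjusted p = 0.67).

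In WT mice no Leu or Ser anticodon was called after NMES. The 9 log2 differences of WT NMES against WT control lay between 0.10 (Ser-AGA) and 0.37 (Leu-CAA), each with an SE of at least 0.24, and adjusted p were 0.81 to 0.94 by edgeR. Over all anticodons 4.26% were called lower and 0% higher, and over the amino acid sums 4.76% lower. At an unadjusted p under 0.05 there were 0 of the 9 and 5 of the 47, and DESeq2 called 0 of the 9. Leu-CAA-2-1 was the row with the smallest p (0.42 ± 0.29, adjusted p = 0.74), and of the lower rows it was Leu-TAA-5-1 (-0.29 ± 0.49, adjusted p = 0.90). Leu averaged 6518 ± 1239 CPM in WT NMES and 5257 ± 1546 CPM in WT control libraries (SD, n = 6 each).

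Over both genotypes together, and between them, no Leu or Ser tRNA was called. For NMES averaged over genotypes the log2 differences were 0.16 ± 0.15 for Leu and -0.16 ± 0.18 for Ser (adjusted p = 0.46 and 0.49 by edgeR), while 17% of all anticodons and 19% of all amino acid sums were called lower. The rows with the smallest p were Leu-TAG-1-1 (0.22 ± 0.16, adjusted p = 0.37) and Ser-GCT-5-1 (-0.98 ± 0.54, adjusted p = 0.26), which stood at -0.16 without KlHET control replicate 2. For the difference of the NMES effects, KlHET minus WT, all 9 anticodons were negative, from -0.16 (Leu-AAG) to -0.78 (Ser-AGA), with adjusted p of 0.30 to 0.73, and the median was -0.46 for the 9 and -0.42 for all 47. Called lower were 2.64% of all rows and 0 of the 45. At an unadjusted p under 0.05 there were 3 of the 45 and 67 of all 341 rows, and DESeq2 called 0 of the 45. Leu-TAA-5-1 (0.15 ± 0.64, adjusted p = 0.91) and Ser-GCT-2-1 (-2.23 ± 0.97, adjusted p = 0.22) had the smallest p in each direction, and without KlHET control replicate 2 Ser-GCT-2-1 stood at -0.83 (adjusted p = 0.62 by edgeR). With tRNA totals alone as library size, the Leu and Ser sums turned positive in this contrast (0.65 and 0.51).

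KlHET control replicate 2 differed from its group within the Ser and Leu families and not only in scale. Relative to the median of the other 7 KlHET controls, its CPM was 4.41 times for Ser-AGA, 4.17 times for Ser-TGA, 2.94 times for Ser-CGA, 2.46 times for Leu-TAA and 1.94 times for Leu-CAA, but 1.09 times for Ser-GCT, 0.457 times for Leu-AAG, 0.390 times for Leu-TAG and 0.569 times for Leu-CAG. Raw counts gave this split only in part. By CPM 19 of the 54 rows lay above all other KlHET controls, but by raw count only 5 did. The Leu-CAA rows, higher by CPM, had raw counts below the median of the others, such as 48 against 69 for Leu-CAA-2-1. Ser-GCT-5-1 and Ser-GCT-2-1 had 56 counts each, Ser-GGA-1-1 had 51, Ser-TGA-1-1 had 39 and Ser-CGA-1-1 had 91, each the highest count of its group, whereas Leu-CAG-1-1 had 9, Ser-GCT-4-1 had 10 and Leu-AAG-1-1 had 12, against medians of 79, 83 and 88 in the others. Ser-AGA-2-1 had 96 counts there while Ser-AGA-1-1 had 67 and Ser-TGA-2-1 had 68, the largest gap between Ser-AGA-2-1 and Ser-TGA-2-1 in any library.

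The ratio of Ser-AGA to Ser-GCT within a library needs no scaling. It had a lowest, median and highest value of 0.637, 1.01 and 1.34 in KlHET NMES, 0.599, 1.20 and 3.78 in KlHET control, 0.872, 1.07 and 2.02 in WT NMES, and 0.936, 1.20 and 1.61 in WT control libraries. The groups overlapped, with KlHET control replicate 2 (3.78) and WT NMES replicate 3 (2.02) above the other 26 libraries. The median was lower in NMES than in control libraries of both genotypes; this was not tested, since the ratio was chosen after the counts had been seen.

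**Figure D5:**
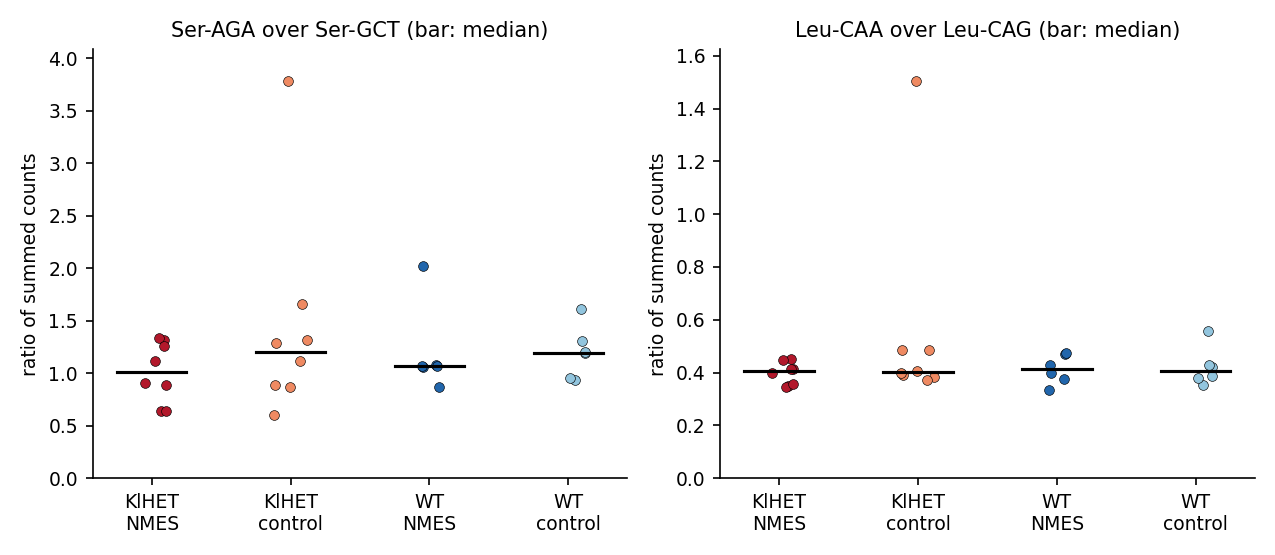
Ratio of summed counts of Ser-AGA to Ser-GCT (left) and of Leu-CAA to Leu-CAG (right) in each library (points) of the KlHET NMES, KlHET control, WT NMES and WT control groups, with a bar at each group median. KlHET control replicate 2 stands above all other libraries in both panels, at 3.78 and 1.504, and the 4 groups otherwise overlap.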

How the data were processed

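Plasma EV small RNA was sequenced from 28 mice (NEBNext small RNA kit, single-end reads). The authors aligned reads with STAR 2.5.3a to mm10 and counted them with COMPSRA; the deposited values are whole-number counts per ncRNA, and the handling of reads with several matches is not given in the sources used here. Groups came from the sample labels, and members and lists were chosen with earlier results of these data known. The tRNA rows, and their sums by anticodon and amino acid, were fitted in R 4.3.3 with edgeR 4.0.16 (filterByExpr by group, TMM from the tRNA rows, 4 group means, quasi-likelihood test, Benjamini-Hochberg over all tRNA features, called at adjusted p under 0.05). DESeq2 1.42.0, other scalings and filters, and leaving out libraries were alternatives; 1 row per distinct profile (tolerance 5%) was added after seeing the data. The row fit was also run on data simulated for NMES against control in KlHET mice. It called 26.7% of rows set to 2 times and 21.4% of rows set to 0.5 times. At 4 and 0.25 times it called 80% and 60%, and of 279 unchanged rows it called 0. An absent call of a row therefore does not exclude a 2-fold change. Rows named in the text were the row of highest mean CPM of each anticodon, every called row, the row with the smallest p in each direction of each comparison, every SeC row and rows of at least 50 counts with over 50% in 1 library. Other rows were named after their values were seen. Sequences were read from GENCODE vM21 at RefSeq loci. No sample column was left out.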

Additional observations from a re-analysis of the deposited data

Results flagged for a closer look

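A library was set apart where its gap to the nearest other library of its group was large for the group's range (Dixon's 95% criterion), applied to CPM of 11 anticodons and of Leu and Ser. Of 52 groups of values checked, 9 held such a library, which is 17.3%. The criterion gives about 5% only for normally distributed values. The CPM were not log-transformed and some rested on few counts, so 17.3% cannot be weighed against 5%. Nor are the checks independent, since several rows share reads. KlHET control replicate 2 accounted for 6 of the 9. It had 9977 CPM for Ser-AGA (next 4658), 2715 for Ser-TGA (next 1344), 1645 for Ser-CGA (next 879), 791 for Ser-GGA (next 52.4), 2871 for Leu-CAA (next 1623) and 17766 for Ser as a whole (next 10453). The TMM factor of this library was 0.341, which raises its CPM. By raw count Ser-AGA-2-2 had 96 there and up to 119 in the other KlHET controls. Only 5 of the 54 rows, Ser-GGA-1-1 and Ser-CGA-1-1 among them, had the highest raw count of the group. KlHET NMES replicate 4 had 946 CPM for Leu-TAA against 244 for the next library of its group, from Leu-TAA-1-1, Leu-TAA-2-1 and Leu-TAA-3-1. SeC-TCA had 132 CPM (59 counts) in WT control replicate 5 against 28.5 CPM for the next WT control; its TMM factor was 0.208, and by share of tRNA counts it had 0.00275%, below the 0.00286% of WT control replicate 1. SeC-TCA also had 27.0 CPM (6 counts) in KlHET control replicate 1 against 8.17 CPM for the next KlHET control.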

How the results depend on the processing

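Depth limited the rows with few counts, and SeC-TCA and Ser-GGA, which the filter removed, were not tested. No paired analysis was possible because the labels give no replicate numbers that the groups share. Of 715 values under alternatives other than leaving out 1 library, 569 kept their direction and their side of the threshold (or, for counts and levels, stayed close), and the cause of the others was not tested.

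For KlHET against WT control mice, the 5 called rows became 1 with 1 row per distinct profile (chosen after seeing the data), 2 with no filter, and 0 with at least 10 counts in 6 libraries, DESeq2, library size alone, only the groups compared, TMMwsp, or without KlHET control replicate 2 and WT control replicate 5 together. The 2 called anticodons became 4 with TMM over all RNA classes, 1 with DESeq2 or without the tRNA rows that held over 50% of their counts in 1 library, and 0 with the other settings just named except 1 row per profile and no filter. Of Leu and Ser, 1 was called with 1 row per profile and 0 with DESeq2, library size alone, TMMwsp, only the groups compared, the stricter filter, without such rows or without both libraries. For NMES against control in KlHET mice, called rows numbered 2 with no filter and 0 with 1 row per profile, the stricter filter, DESeq2, library size alone, only the groups compared, TMMwsp and without both libraries, while TMM over all RNA classes called 2 anticodons and 1 amino acid (Ser). Leaving out 1 library at a time gave 0 to 6 called rows, 0 to 4 anticodons and 0 to 2 amino acids for KlHET against WT control mice, where the log2 difference of Leu was 0.30 to 0.59 and that of Ser 0.31 to 0.80, and 0 to 2 called rows for NMES in KlHET mice.

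Log2 differences that changed sign were mostly those of NMES in KlHET mice. Library size alone gave 0.61 for Ser, 0.70 for Leu-CAA, 0.65 for Leu-TAA, 0.51 for Ser-AGA, 0.63 for Ser-CGA, 0.75 for Ser-GCT and 0.52 for Ser-TGA. TMMwsp gave 0.089 for Ser, 0.32 for Leu-CAA, 0.032 for Leu-TAA and 0.31 for Ser-GCT. TMM over all RNA classes gave -0.14 for Leu, -0.091 for Leu-AAG, -0.070 for Leu-CAG, -0.11 for Leu-TAG and -0.023 for Leu-AAG-1-2. Leu was -0.030 with no filter and -0.034 with 1 copy per isodecoder, and Leu-CAA was 0.031 without both libraries. For NMES over both genotypes, Ser was 0.35 with library size alone and 0.17 with TMMwsp. For the difference of NMES effects, Leu was 0.65 and 0.15 under those scalings and Ser 0.51 with library size alone, and Leu-TAA-5-1 was -0.066 with no filter and -0.024 without both libraries. Ser in KlHET against WT NMES mice was -0.11 with no filter, and TMMwsp gave -0.075 for Leu-AAG and -0.010 for Leu-TAG in KlHET against WT control mice. With 1 library left out, NMES in KlHET mice gave -0.044 to 0.17 for Leu, -0.020 to 0.23 for Leu-AAG, -0.85 to 0.098 for Leu-TAA, -0.047 to 0.24 for Leu-TAG and -0.20 to 0.072 for Ser-GCT. Ser over both genotypes was -0.20 to 0.00012, Ser in KlHET against WT NMES mice -0.0039 to 0.13, and Leu-TAA-5-1 in the difference of NMES effects -0.12 to 0.47.

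Rows seen per library averaged 44.6 in KlHET NMES, 45.9 in KlHET control, 46.8 in WT NMES and 46.7 in WT control libraries with at least 5 counts, and 49.1, 47.6, 48.0 and 46.0 in the same groups after thinning to the smallest tRNA total.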
